A study of Mus musculus with 17 samples.

Results

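The cells described here are C1q macrophages of mouse pancreatic tumours that remained after 4 other C1q-rich states had been set aside. They numbered 2045 of 18546 cells that passed the quality limits, out of 23150 barcodes in 5 single-cell libraries. The members were chosen by measured UMIs. A barcode was a member when it held at least 500 genes, at most 10% mitochondrial UMIs (unique molecular identifiers, each marking 1 captured RNA molecule), at least 1 UMI of Csf1r, at least 20 UMIs of C1qa, C1qb and C1qc together, and 0 UMIs of Cd3d, Cd3e, Cd3g and Cd79a. A member also had fewer than 4 UMIs of Marco, Lyve1 and Fcna, fewer than 3 of Mki67 and Top2a, fewer than 5 of Cxcl9 and Cxcl10, and fewer than 3 of Ccl24. Without the last 4 limits the gate held 3517 cells. Of the remainder, 594 passed only the Cxcl9/Cxcl10 limit, 243 only the Marco/Lyve1/Fcna limit, 179 only the Ccl24 limit, 124 only the cycling limit, and 332 passed 2 or more of them.

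Each library came from 1 mouse genotype with no replicate. The genotypes were PDL1 floxed/floxed-CD4Cre (flfl_CD4Cre), PDL1 floxed/WT-CD4Cre (flWT_CD4Cre), PDL1 floxed/floxed without Cre (flfl), CD4Cre without a floxed allele (CD4Cre) and WT. PDL1 is the protein encoded by Cd274, and Cre was driven by the Cd4 promoter, which is active in the T cell lineage, so the design aims at loss of the gene from T cells and not from macrophages. All mice were untreated apart from the tumour, which was implanted in the pancreas, and CD45+ leukocytes were sorted 3 weeks later. The labels name the material tumor infiltrating T cells, whereas the sort was for all leukocytes and the cells described here carry macrophage transcripts. Ages, and whether animals were pooled, are not given in the sources used here.

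Macrophages that make C1q secrete the recognition subunit of the classical complement pathway, which binds antibody complexes and dying cells and promotes their uptake. In tumours such cells are commonly found together with ApoE, a lipid carrier, with lysosomal enzymes and with antigen-presenting MHC class II molecules, and they can carry PD-L1, the ligand of the T cell inhibitory receptor PD-1. The states that were set aside have their own known programmes: Marco and Lyve1 mark scavenging, tissue-resident macrophages, Cxcl9 and Cxcl10 are chemokines induced by interferon, and Ccl24 is an eosinophil attractant of alternatively activated macrophages.

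The members numbered 517 in flfl_CD4Cre, 252 in flWT_CD4Cre, 358 in flfl, 242 in CD4Cre and 676 in WT, with 3252576 to 8236203 summed UMIs per library and medians of 10962.5 to 15932.5 UMIs per cell. The libraries fell into 2 sets by their matrix headers. The matrices of flfl_CD4Cre, flWT_CD4Cre and CD4Cre name Cell Ranger 3.1.0 and those of flfl and WT name no version, and 28208 genes are common to all. Members of the first set had 802 to 1001 CPM (UMIs of a gene per 1000000 UMIs) of the female-specific transcript Xist, and members of flfl and WT had 0. Between 1414 and 1856 barcodes were shared by each pair of the first set, and 12 by flfl and WT. Among the members, 95 in flfl_CD4Cre, 19 in flWT_CD4Cre, 0 in flfl, 64 in CD4Cre and 4 in WT had a barcode that also occurred in another library. Of cells that passed the quality limits, 508 in flfl_CD4Cre, 833 in flWT_CD4Cre and 722 in CD4Cre had a barcode with an at least 10-fold deeper copy in another library, and whether they are separate cells was not tested. Among members such barcodes numbered 0 in flfl_CD4Cre, 4 in flWT_CD4Cre and 1 in CD4Cre. The presence of Cre, the sex-linked transcripts and the matrix format cannot be told apart, so flfl_CD4Cre was set against CD4Cre, which lies in the same set.

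The targeted gene was read in T cells of the same libraries (cells with 3 or more Cd3 UMIs and no Csf1r or Cd79a). Cd274 reached 22 UMIs and 51.4 CPM (95% Poisson interval 32.2 to 77.8) in 53 T cells of flfl_CD4Cre, against 35 UMIs and 52.2 CPM (36.3 to 72.6) in 90 T cells of CD4Cre. T cells of flWT_CD4Cre had 34.3 CPM, those of flfl 10.1 CPM and those of WT 8.82 CPM. Cd274 was thus not lower in T cells of the library labelled flfl_CD4Cre than in those labelled CD4Cre. Which part of Cd274 is deleted is not given in the sources used here, and a tag outside that part would not report the deletion. Intervals here and throughout cover counting error only.

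The member cells were checked against macrophage and other markers. Csf1r, the receptor for the macrophage growth factor CSF1, was part of the rule and stood at 699.5 CPM in flfl_CD4Cre, 554 in flWT_CD4Cre, 656 in flfl, 644 in CD4Cre and 532 in WT. Adgre1, which encodes the macrophage surface protein F4/80 and was not part of the rule, had 198 CPM in flfl_CD4Cre, 162 in flWT_CD4Cre, 294 in flfl, 169 in CD4Cre and 309.7 in WT, against 2.34 CPM in flfl_CD4Cre, 1.27 in flWT_CD4Cre, 6.5 in flfl, 4.47 in CD4Cre and 8.82 in WT in T cells. The share of members with a UMI of Adgre1 was 76.2% in flfl_CD4Cre, 69% in flWT_CD4Cre, 83.5% in flfl, 64% in CD4Cre and 90.4% in WT, beside 1.47% to 5.84% of T cells, whose median depth was 5836.5 to 8135.5 UMIs. Adgre1 therefore lay far above the T cell level in all 5 libraries. The 12 T cell markers summed to 99 to 162 CPM in members and 5371 to 8023 CPM in T cells. Neutrophil markers summed to 202, 198 and 231 CPM in members of flfl_CD4Cre, flWT_CD4Cre and CD4Cre, and to 1506 and 1412 CPM in members of flfl and WT. The neutrophil gene S100a8 gave a UMI in 84.4% of flfl members and 94.7% of WT members, beside 75.9% and 91.4% of T cells in the same libraries, which were shallower. With cells thinned to 3000 UMIs the shares were 41.9% and 63.2% of flfl and WT members, beside 41.9% and 67% of their T cells. At 1 depth these shares were no higher in members than in T cells. Over all 10 neutrophil markers T cells summed to 984 CPM in flfl, below its members, and to 4426 CPM in WT, above its members. Whether S100a8 in flfl and WT members is background was not tested.

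The limits of the rule cut through continuous distributions. At the C1q limit, 18 members sat at 20 UMIs and 16 otherwise qualifying cells sat at 19. At the Csf1r limit, 126 members had 1 UMI and 77 cells were left out with 0. Just inside the state limits were 25 members with 3 UMIs of Marco, Lyve1 and Fcna, 52 with 2 of Mki67 and Top2a, 40 with 4 of Cxcl9 and Cxcl10, and 43 with 2 of Ccl24. Just outside were 16 cells with 4, 27 with 3, 33 with 5 and 16 with 3 UMIs of the same genes.

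Members made up 44.04% of the C1q gate in flfl_CD4Cre (exact binomial 95% interval 41.2 to 46.9%), 43.8% in flWT_CD4Cre (39.7 to 47.9%), 69.4% in flfl (65.2 to 73.3%), 58.2% in CD4Cre (53.3 to 63.0%) and 81.0% in WT (78.1 to 83.6%). The libraries flfl_CD4Cre and flWT_CD4Cre lay below CD4Cre, and flfl lay below WT, with intervals that did not overlap. Because the limits count raw UMIs, a deep cell passes a state limit more easily, and members of the first set had medians of 12874 to 15932.5 UMIs against 10962.5 to 11074 in flfl and WT. With every gated cell thinned to 3000 UMIs the shares were 68.0% in flfl_CD4Cre, 70.2% in flWT_CD4Cre, 85.1% in flfl, 76.8% in CD4Cre and 92.7% in WT, in the same order but for the lowest pair. Without shared barcodes flfl_CD4Cre stood at 54.7% and CD4Cre at 63.1%, with intervals of 51.1 to 58.3% and 57.2 to 68.8% that overlapped. In flfl_CD4Cre the other gated cells were 235 of the Cxcl9/Cxcl10 state, 183 of the Marco/Lyve1/Fcna state, 174 past 2 or more limits, 36 of the Ccl24 state and 29 cycling cells. The Marco/Lyve1/Fcna state held 183 of 1174 gated cells in flfl_CD4Cre and 42 of 576 in flWT_CD4Cre, against 6 of 516 in flfl, 2 of 416 in CD4Cre and 10 of 835 in WT. With 1 library per genotype these differences have no replicate check.

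**Figure D1:**
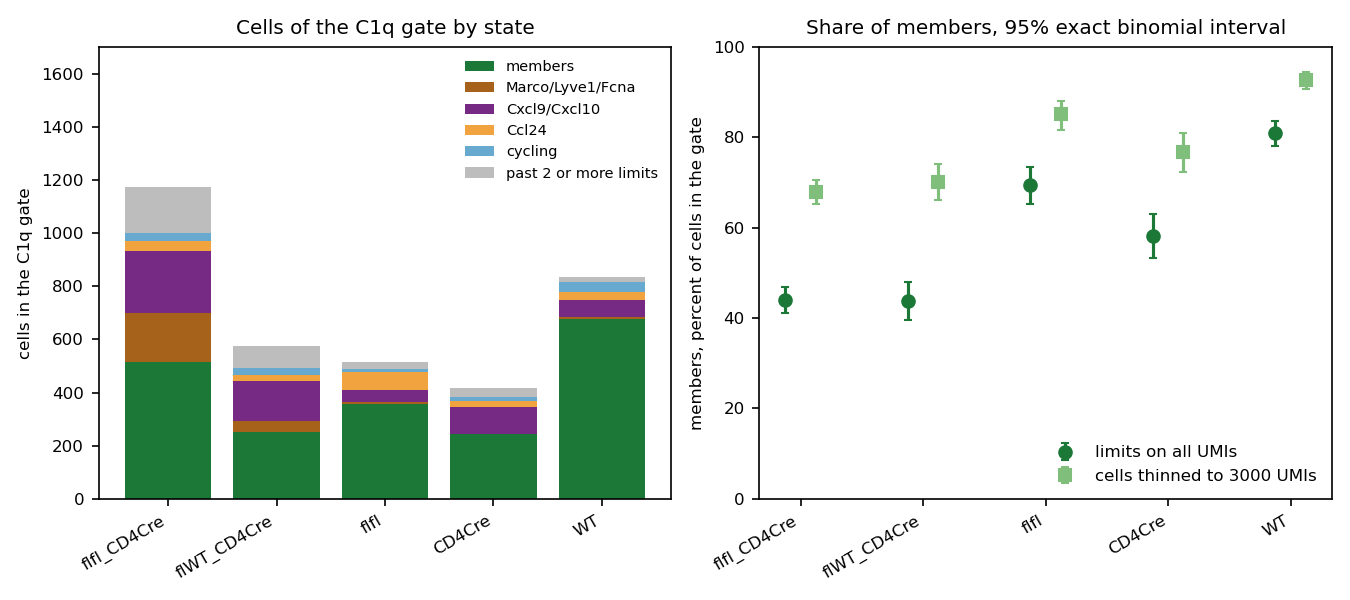
Cells of the C1q gate in each library by state, as stacked cell numbers (left panel), and members as a percentage of gated cells with exact binomial 95% intervals (right panel), for limits on all UMIs and for cells thinned to 3000 UMIs. Members ranged between 43.8% of gated cells in flWT_CD4Cre and 81.0% in WT, and the Marco/Lyve1/Fcna state was large only in flfl_CD4Cre, with 183 cells, and flWT_CD4Cre, with 42.

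The transcripts that name these cells differed between the library sets, and since C1q was part of the rule its levels are a description. C1qa, 1 of 3 genes for the chains of C1q, had 3465 CPM in flfl_CD4Cre, 3539.9 in flWT_CD4Cre, 7247 in flfl, 3253 in CD4Cre and 8740.0 in WT. C1qb had 3435 CPM in flfl_CD4Cre, 3622 in flWT_CD4Cre, 7357 in flfl, 2815 in CD4Cre and 8677 in WT, and C1qc had 2340.1 CPM in flfl_CD4Cre, 2279 in flWT_CD4Cre, 5278 in flfl, 2235 in CD4Cre and 6326 in WT. All 3 were higher in flfl and WT than in the other libraries. Apoe, the lipid carrier, was the most abundant of the fixed markers at 12754 CPM in flfl_CD4Cre, 14331 in flWT_CD4Cre, 53472 in flfl, 14169 in CD4Cre and 59669 in WT, against 182 CPM in flfl_CD4Cre, 125 in flWT_CD4Cre, 1183 in flfl, 195 in CD4Cre and 1972 in WT in T cells. Apoe was far higher in members of flfl and WT than in those of the other libraries, and the Apoe level read in T cells was highest in the same libraries.

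Ms4a7, a tetraspan membrane protein of macrophages, had 294 CPM in flfl_CD4Cre, 356 in flWT_CD4Cre, 1377 in flfl, 392 in CD4Cre and 1679 in WT. Cd72, a lectin with an inhibitory signalling motif best known from B cells, had 82.2 CPM in flfl_CD4Cre, 77.3 in flWT_CD4Cre, 512 in flfl, 57.9 in CD4Cre and 665 in WT. Both were lowest in the libraries of the first set and did not overlap with flfl and WT. The share of members with a UMI of Ms4a7 was 61.7% in flfl_CD4Cre, 67.9% in flWT_CD4Cre, 89.1% in flfl, 71.1% in CD4Cre and 97.9% in WT, beside 2.22 to 18.2% of T cells. After thinning to 3000 UMIs it was 37.6% in flfl_CD4Cre, 49.2% in flWT_CD4Cre, 80.7% in flfl, 50.2% in CD4Cre and 92.2% in WT, beside at most 7.90% of T cells. For Cd72 the thinned shares of members were 18.8% in flfl_CD4Cre, 19.9% in flWT_CD4Cre, 58.7% in flfl, 16.2% in CD4Cre and 72.3% in WT, beside 7.27 to 12.05% of T cells. The 2 were closest in CD4Cre, at 16.2% of members and 12.05% of T cells. Igkc, an antibody chain that macrophages do not make, was present in 96.1% and 98.8% of flfl and WT members and in 92.3% and 97.3% of their T cells.

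**Figure D2:**
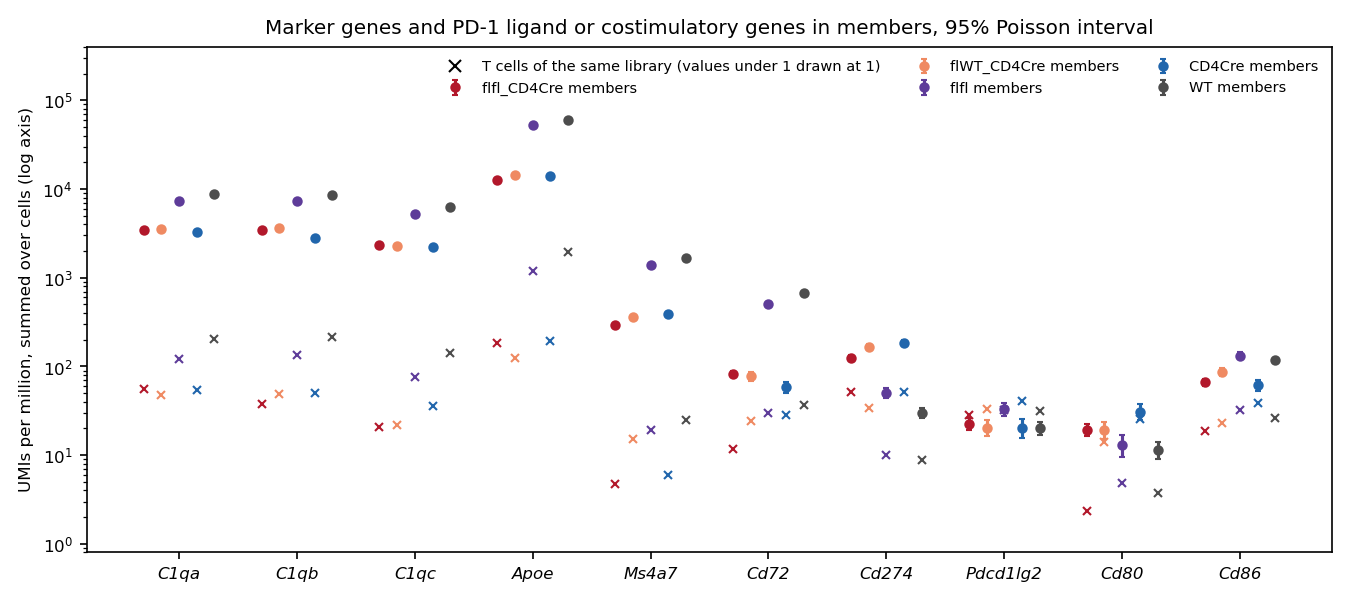
Level of the fixed markers, the PD-1 ligand genes and the costimulatory genes in members of each library (points, with 95% Poisson intervals), in CPM on a log axis, with T cells of the same library as crosses. C1qa, C1qb and C1qc were part of the rule, so their excess over T cells follows from the choice of members. Apoe, Ms4a7 and Cd72, which were not, also stood above their T cell level in members and were highest in flfl and WT.

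The members were then compared with each of the other states over the libraries that held at least 20 cells of both, with the library as a block. The gates and the genes tested come from the same cells, so genes that vary together with a gate gene differ by the way the states were chosen, and the counts describe those states rather than test them. Across all 9742 genes tested the median log2 difference was -0.00 against the Marco/Lyve1/Fcna state, 0.02 against the Cxcl9/Cxcl10 state and 0.02 against the Ccl24 state.

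Against the Marco/Lyve1/Fcna macrophages, members had more transcript of many glycolysis and hypoxia genes and of several matrix genes, and less of most resident-like macrophage genes. Only flfl_CD4Cre (517 members and 183 cells of the state) and flWT_CD4Cre (252 and 42) entered, and 753 genes were higher in members (7.73% of genes tested) and 732 lower (7.51%). Without flfl_CD4Cre, which leaves 1 library with both states and takes its spread from the other states, 393 were higher and 319 lower. Cells of the state were deeper, with medians of 22768 and 19682 UMIs against 14954 and 15932.5 in members.

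Itgax, the integrin CD11c, was found at 137 against 6.5 CPM in flfl_CD4Cre and 138 against 4.89 in flWT_CD4Cre (log2 difference 4.65, SE 0.38, edgeR adjusted p = 2.4e-06), members first and Marco/Lyve1/Fcna cells second. Mmp12, a macrophage elastase, had 1200.3 against 39.3 CPM in flfl_CD4Cre and 1657 against 141 in flWT_CD4Cre (log2 difference 4.29, SE 0.43, edgeR adjusted p = 0.0001). Tnfrsf9, which encodes the costimulatory receptor 4-1BB, had 185 against 3.85 CPM in flfl_CD4Cre and 228 against 2.45 in flWT_CD4Cre (log2 difference 6.13, SE 0.53, edgeR adjusted p = 1.8e-05). In both libraries the members lay above the state for each of the 3 genes, without overlap. Il1b, the inflammatory cytokine interleukin 1β, had 164 against 14.2 CPM in flfl_CD4Cre and 369.8 against 26.9 in flWT_CD4Cre (log2 difference 3.98, SE 0.65, edgeR adjusted p = 0.0026). Vegfa, the vascular growth factor induced in low oxygen, had 151 against 11.8 CPM in flfl_CD4Cre and 278 against 17.1 in flWT_CD4Cre (log2 difference 3.97, SE 0.43, edgeR adjusted p = 9.9e-05). The monocyte genes Ly6c2 and Chil3 were higher by 4.04 and 3.65, and Jaml, an adhesion molecule, by 3.99. Il1r2, the decoy receptor for interleukin 1, and Mmp8, a collagenase, were close to absent from the state, with at most 2.45 CPM, against 46.7 to 91.4 CPM in members. Without flfl_CD4Cre, the adjusted p of Il1b, Il1r2, Jaml, Ly6c2 and Chil3 no longer passed 0.05, and Chil3 also missed it without flWT_CD4Cre, CD4Cre or WT.

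Cd163, the haemoglobin scavenger receptor, had 9.61 against 158 CPM in flfl_CD4Cre and 2.81 against 86.8 in flWT_CD4Cre (log2 difference -4.33, SE 0.27, edgeR adjusted p = 3e-10). Cd5l, a secreted protein of tissue-resident macrophages, had 1.7 against 33.5 CPM in flfl_CD4Cre and 4.22 against 143 in flWT_CD4Cre (log2 difference -4.68, SE 0.33, edgeR adjusted p = 1.1e-08). Both genes were lower in members of each library. Vsig4, a complement receptor of resident macrophages, had 0.365 against 153 CPM in flfl_CD4Cre and 0 against 14.7 in flWT_CD4Cre, and Prg4, the lubricating proteoglycan lubricin, had 0.243 against 8.67 CPM in flfl_CD4Cre and 0.469 against 161 in flWT_CD4Cre. Since members held almost no UMI of either gene, their fitted differences of -9.79 and -7.98 depend on the prior count. Alox15, a lipoxygenase, was listed at 0.608 against 1.69 CPM in flfl_CD4Cre and 0 against 183 in flWT_CD4Cre, so that its high level in the state came from flWT_CD4Cre, and its adjusted p missed 0.05 without that library or without flfl. Cxcl13, the B cell chemokine, had 7.42 against 120.2 CPM in flfl_CD4Cre and 0.234 against 103 in flWT_CD4Cre (log2 difference -4.85, SE 0.61, edgeR adjusted p = 0.00082). Padi4, an arginine deiminase, Slc9a3r2, a scaffold protein, Mlxipl, a glucose-responsive transcription factor, and Gbp2b, an interferon-induced GTPase, were lower in members, with log2 differences of -4.12, -3.62, -3.59 and -3.27.

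In gene groups, 16 of 22 tested glycolysis and hypoxia genes were higher in members, with a median log2 difference of 1.12. They included the glucose transporter Slc2a1 (2.47), the lipid droplet protein gene Hilpda (2.31), Bnip3 (2.21), which promotes mitochondrial turnover, and Pgk1 (1.18), a glycolytic enzyme. Without flWT_CD4Cre 7 of the 22 were higher, and without flfl_CD4Cre 15. Of 19 matrix and remodelling genes, 9 were higher, among them the proteases Mmp14 (2.93), Mmp13 (3.63) and Plau (2.07), and 2 were lower, Timp2 (-1.68) and Sparc (-1.28). Both missed an adjusted p of 0.05 without flfl_CD4Cre, and Timp2 also without CD4Cre or flfl. Of 19 inflammatory macrophage genes, 5 were higher, with a median of 0.76 over the list: Il1b, Ptgs2, Il1a (3.75), Il1rn (2.47), the interleukin 1 receptor antagonist, and Nos2 (2.93), inducible nitric oxide synthase. Cd38, an enzyme that consumes NAD, was lower (-0.93), and 13 did not pass, among them Cd40 (-0.57) and Cxcl1 (-1.60). Il1rn and Nos2 passed under each omission of a library. Without flfl_CD4Cre, Il1b, Il1a and Ptgs2 missed the threshold, and without flWT_CD4Cre, Il1a, Ptgs2 and Cd38 did. Of 12 resident-like macrophage genes 9 were lower, with a median of -2.71, among them Folr2 (-2.93), a folate receptor, Timd4 (-6.28), which binds phosphatidylserine on dying cells, and Mrc1 (-0.56), the mannose receptor, and 1 was higher, the chemokine Pf4 (1.79), which missed the threshold without CD4Cre, flfl or flfl_CD4Cre. In the complement and phagocytosis list 3 of 19 were higher and 8 lower, including C4b (-3.12) and Cfp (-0.96), which encode complement C4 and properdin. Without flfl_CD4Cre 4 were higher and 5 lower.

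Markers of other cell types also differed here. Natural killer cell markers, a list that includes Ccl5, summed to 214 to 312 CPM in members and 14.7 to 80.0 CPM in the state. Ccl5 alone had 301 CPM in members of flfl_CD4Cre and 202 CPM in those of flWT_CD4Cre. In the state Eomes, Gzma, Gzmb, Klre1, Ncr1 and Prf1 were at 0. In members Eomes and Prf1 were at 0 in both libraries, and Klre1 and Gzmb in flfl_CD4Cre. T cell markers summed to 105 to 131 CPM against 12.05 to 33.0 CPM in the state, where Lck, Skap1, Trac and Trbc1 were at 0. Erythroid and platelet markers, a list that includes Pf4, summed to 806 to 1693 CPM in members and 224 to 593 CPM in the state. In the state Alas2, Hba-a1, Hba-a2, Hbb-bs, Hbb-bt and Ppbp were at 0. Nearly all of the member sum was Pf4 in both libraries, and Hba-a2 and Alas2 were at 0 in members too. Dendritic cell markers summed to 123 to 169 CPM in members and 81.7 to 105 CPM in the state, where Clec9a was at 0. Neutrophil markers, a list that includes Mmp8, summed to 198 to 202 CPM in members and 70.6 to 109 CPM in the state, where Camp was at 0. Epithelial and acinar markers summed to 98.7 to 119.7 CPM in members and 58.5 to 68.5 CPM in the state. Fibroblast and endothelial markers summed to 52.1 to 75.0 CPM in members and 35.5 to 38.5 CPM in the state, where Pdgfrb was at 0. Their part in the differences was not tested.

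Against the Cxcl9/Cxcl10 macrophages, which all 5 libraries held, members had less transcript of interferon-induced genes and more of 4 of 12 resident-like macrophage genes. Here 208 genes were lower in members (2.14% of genes tested) and 73 higher (0.749%). Without CD4Cre 126 were lower and 38 higher, and the other omissions gave 167 to 201 lower and 57 to 83 higher.

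Gbp5, an interferon-induced GTPase that takes part in inflammasome activation, had 41 against 325 CPM in flfl_CD4Cre, 23.2 against 129 in flWT_CD4Cre, 10.7 against 38.3 in flfl, 30.5 against 194 in CD4Cre and 8.7 against 40.5 in WT, members first and Cxcl9/Cxcl10 cells second (log2 difference -2.61, SE 0.14, edgeR adjusted p = 4.4e-11). Its relative Gbp2 had 161 against 876 CPM in flfl_CD4Cre, 90.9 against 341 in flWT_CD4Cre, 66.8 against 269.6 in flfl, 91.2 against 507 in CD4Cre and 45.8 against 212 in WT (log2 difference -2.26, SE 0.21, edgeR adjusted p = 8.3e-05). Iigp1, a GTPase that attacks pathogen vacuoles, had 91.7 against 553 CPM in flfl_CD4Cre, 60.0 against 278 in flWT_CD4Cre, 19.6 against 167 in flfl, 91.5 against 549 in CD4Cre and 13.1 against 161 in WT (log2 difference -2.80, SE 0.33, edgeR adjusted p = 0.0013). In every library the members were the lower group for all 3 genes. Ifit1, which binds foreign RNA, had 33.2 against 104 CPM in flfl_CD4Cre, 48.7 against 259 in flWT_CD4Cre, 6.96 against 64.3 in flfl, 25.3 against 114 in CD4Cre and 4.54 against 56.4 in WT (log2 difference -2.40, SE 0.35, edgeR adjusted p = 0.0046). Socs1, an inhibitor of cytokine signalling, had 29.7 against 188 CPM in flfl_CD4Cre, 24.1 against 92.8 in flWT_CD4Cre, 24.1 against 41.7 in flfl, 41.6 against 123 in CD4Cre and 9.48 against 65 in WT (log2 difference -2.09, SE 0.23, edgeR adjusted p = 0.00014). The remaining genes named by size were Serpina3g, a protease inhibitor (-2.99), Ifit3 (-2.25), Batf2, a transcription factor (-2.15), Ifit2 (-2.03) and Dnase1l3, a secreted nuclease (-2.02). Ifit2 missed an adjusted p of 0.05 without CD4Cre, flfl or WT, and Ifit3 without CD4Cre, flfl or flWT_CD4Cre, whereas the other 8 genes lower in members passed under each omission.

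Of 19 interferon γ response genes tested, 18 were lower in members, with a median of -1.27, and 15 to 17 were lower when single libraries were left out. They included the transcription factor Irf1 (-1.09) and Cd274 (-0.67). Of 20 type I interferon genes, 10 were lower with a median of -0.78, among them Isg15 (-1.57), a ubiquitin-like protein, and Usp18 (-1.67), which removes it. That count was the least stable, with 3 lower without CD4Cre, 5 without flfl, 6 without flWT_CD4Cre, 7 without WT and 9 without flfl_CD4Cre. Of 13 MHC class I presentation genes, 11 were lower with a median of -0.63, among them the peptide transporter Tap1 (-0.90) and B2m (-0.40), the light chain, and 10 or 11 were lower with any library left out. The MHC class II list had 1 of 11 lower, H2-DMb1 (-0.42), and a median of -0.41, and H2-DMb1 missed the threshold without CD4Cre, flfl, flfl_CD4Cre or flWT_CD4Cre.

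The promoters of these interferon genes were read because many of them share a short element. The core of the interferon-stimulated response element, read as GAAA, any 2 bases and GAAA again, was searched on both strands in the 250 bases upstream of the start, in RefSeq promoters of build GRCm38.p6. Of 28 genes on the interferon lists that were lower in members, 19 had an entry and 12 of these held the core, against 290 of 7715 tested genes with an entry (3.76%) and 978 of 32851 promoters in the table (2.98%). A match is a description of the sequence and does not show binding. Since these genes come from interferon lists, a share above that of all genes follows from their choice and says nothing about members. Genes of the lists that were not lower were not searched separately. The 6 stretches printed are those of genes with large differences, and they run 5′ to 3′ on the gene's strand with 30 bases on each side of the match, which is in capitals. On the printed strand TTTC, any 2 bases and TTTC are the same core read from the opposite strand, and overlapping matches run together.
Gbp5, chr3:142496739-142496808, plus strand: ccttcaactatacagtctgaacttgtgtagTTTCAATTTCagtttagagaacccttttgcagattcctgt
Gbp2, chr3:142620574-142620643, plus strand: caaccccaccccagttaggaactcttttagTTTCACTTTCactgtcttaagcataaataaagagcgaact
Ifit1, chr19:34640755-34640843, plus strand: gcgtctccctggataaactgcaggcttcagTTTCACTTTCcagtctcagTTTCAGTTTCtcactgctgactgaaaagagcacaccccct
Ifit3, chr19:34583343-34583446, plus strand: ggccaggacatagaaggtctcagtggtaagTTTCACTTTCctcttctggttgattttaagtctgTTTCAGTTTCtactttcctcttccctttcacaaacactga
Socs1, chr16:10785574-10785649, minus strand: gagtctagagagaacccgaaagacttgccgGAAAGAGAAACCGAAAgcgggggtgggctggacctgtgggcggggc
Isg15, chr4:156200845-156200926, minus strand: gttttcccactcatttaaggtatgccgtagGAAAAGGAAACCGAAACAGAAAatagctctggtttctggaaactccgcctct
The first base of the match lay 165 bases before the start in Gbp5 and 59 bases before it in Gbp2. Ifit1 held matches 104 and 85 bases before the start, and Ifit3 156 and 122. The cores of Socs1 and Isg15 overlapped one another, in Isg15 as a run of 3.

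Genes higher in members than in the Cxcl9/Cxcl10 state showed smaller differences. Mrc1, the mannose receptor, had 781 against 338 CPM in flfl_CD4Cre, 544 against 349.7 in flWT_CD4Cre, 138 against 118 in flfl, 619 against 358 in CD4Cre and 135 against 85.9 in WT (log2 difference 0.70, SE 0.12, edgeR adjusted p = 0.00097). Gas6, a ligand that bridges dying cells to the receptors Axl and Mertk, had 87.2 against 25.7 CPM in flfl_CD4Cre, 68.4 against 30.7 in flWT_CD4Cre, 30.1 against 3.48 in flfl, 73 against 32 in CD4Cre and 23.5 against 17.2 in WT (log2 difference 1.34, SE 0.25, edgeR adjusted p = 0.0093). Both were higher in members of every library, although Gas6 missed an adjusted p of 0.05 without CD4Cre. The other resident-like macrophage genes that passed were Cd163 (4.23) and Cd5l (3.78), both at low levels, at most 9.61 CPM in members. Cd163 missed the threshold without flfl_CD4Cre and Cd5l without flWT_CD4Cre. The median over the 12 genes was 1.03. Of 22 glycolysis and hypoxia genes 1 was higher, Egln3, and the median was 0.05. Egln3, an oxygen-sensing hydroxylase, was higher by 0.77, the chemokine Ccl9 by 0.76, the collagenase Mmp8 by 1.80, and Eps8, an actin regulator, by 0.84. Nxpe5 (1.03), the ubiquitin ligase Wwp1 (0.95) and Tmcc1 (0.65) completed the genes named by size. Without CD4Cre, Ccl9, Egln3, Tmcc1 and Wwp1 also missed the threshold, as did Ccl9 without flWT_CD4Cre and Tmcc1 without flfl or flfl_CD4Cre. Retnla, a secreted protein of alternatively activated macrophages, had the largest value at 6.81, but its UMIs came from few cells: 1759 UMIs from 29 of 517 members in flfl_CD4Cre, of which 742 were in 1 cell, and 2102 UMIs from 25 of 252 members in flWT_CD4Cre. Retnla missed the threshold when flfl_CD4Cre, flWT_CD4Cre, flfl or WT was left out. Haemoglobin transcripts moved with this comparison, with Hba-a1 higher by 3.33, although in CD4Cre they were at 0 in members and in the state. The erythroid and platelet list summed to 453 to 3484 CPM in members and 184 to 1506 CPM in the state. Pf4 made up most of that sum in members of every library. Natural killer markers summed to 214 to 471 CPM in members and 629 to 998 CPM in the state, with Eomes and Prf1 at 0 in the state. That list includes Ccl5 (-1.60), which alone had 202 to 415 CPM in members. Their part in the differences was not tested.

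Against the Ccl24 macrophages, members had more of the fixed C1q macrophage markers and of 2 chemokines, and 87 genes were higher (0.893% of genes tested) and 40 lower (0.411%). The Ccl24 state was small, with 21 to 69 cells a library, and the counts moved with single libraries. Without flWT_CD4Cre they were 208 higher and 158 lower, without CD4Cre 27 and 15, without flfl 27 and 12, and without WT 21 and 12.

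Ccl8, a chemokine for monocytes and T cells, had 318 against 16.1 CPM in flfl_CD4Cre, 498 against 33.5 in flWT_CD4Cre, 1325 against 336 in flfl, 465 against 2.98 in CD4Cre and 907 against 39.5 in WT, members first and Ccl24 cells second (log2 difference 3.53, SE 0.50, edgeR adjusted p = 0.014). Stab1, a scavenger receptor, had 283 against 108 CPM in flfl_CD4Cre, 273 against 124 in flWT_CD4Cre, 136 against 44.1 in flfl, 479 against 182 in CD4Cre and 178 against 98.7 in WT (log2 difference 1.33, SE 0.14, edgeR adjusted p = 1.3e-05). Ms4a7 had 294 against 104 CPM in flfl_CD4Cre, 356 against 179.6 in flWT_CD4Cre, 1377 against 443 in flfl, 392 against 158 in CD4Cre and 1679 against 343 in WT (log2 difference 1.63, SE 0.25, edgeR adjusted p = 0.015). Members were the higher group in all 5 libraries for each of them. Cd72 had 82.2 against 22.5 CPM in flfl_CD4Cre, 77.3 against 15.8 in flWT_CD4Cre, 512 against 114 in flfl, 57.9 against 50.6 in CD4Cre and 665 against 106 in WT (log2 difference 2.10, SE 0.33, edgeR adjusted p = 0.015), a wide gap in flfl and WT and a narrow one in CD4Cre. Apoe was higher by 0.93 (SE 0.14, edgeR adjusted p = 0.011), so that all 3 fixed markers outside the rule passed. With limits set per 10000 UMIs none of the 3 passed, with edgeR adjusted p of 0.0787 for Cd72, 0.0712 for Ms4a7 and 0.0539 for Apoe at log2 differences of 1.89, 1.60 and 1.08. Ccl5, a T cell chemokine, was higher by 2.49, Gas6 by 2.24, the inhibitory lectin Clec12a by 1.49, Dst, a cytoskeletal linker, by 1.39, Ckb, brain creatine kinase, by 1.34 and Aoah, which inactivates bacterial lipopolysaccharide, by 1.18.

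Ocstamp, a protein needed for fusion of osteoclasts, had 19.7 against 88.3 CPM in flfl_CD4Cre, 12 against 21.7 in flWT_CD4Cre, 26.6 against 128 in flfl, 16.9 against 59.5 in CD4Cre and 18.4 against 64.2 in WT (log2 difference -1.90, SE 0.20, edgeR adjusted p = 3.3e-05). F7, coagulation factor VII, had 58.7 against 188 CPM in flfl_CD4Cre, 91.2 against 290.1 in flWT_CD4Cre, 31.6 against 99.7 in flfl, 98.6 against 185 in CD4Cre and 14.8 against 91.3 in WT (log2 difference -1.61, SE 0.17, edgeR adjusted p = 3.5e-05). Both were lower in members of every library. Qpct, a glutaminyl cyclase (-1.31), Ece1, an endothelin-converting protease (-1.19), Tspan13 (-1.12), Gsr, glutathione reductase (-1.03), Mdh2, mitochondrial malate dehydrogenase (-0.89), Lta4h, leukotriene A4 hydrolase (-0.88), Socs2 (-0.80) and Abcg3 (-0.77) were the other genes lower by size. Of the 20 genes named by size against the Ccl24 state, 7 passed under each omission of a library: Stab1, Dst, Ocstamp, F7, Qpct, Ece1 and Mdh2. Without CD4Cre, Ccl8, Ccl5, Gas6, Ms4a7, Ckb, Aoah, Lta4h, Socs2 and Abcg3 missed an adjusted p of 0.05, and without flfl, Cd72, Ms4a7, Ccl5, Aoah, Tspan13, Gsr, Lta4h and Socs2 did. Without WT, Ccl8, Ccl5, Cd72, Clec12a, Ckb, Aoah, Tspan13 and Socs2 missed it, without flfl_CD4Cre, Ccl8, Ckb, Gsr, Socs2 and Abcg3, and without flWT_CD4Cre, Gsr. Haemoglobin transcripts again moved with the comparison, Hba-a1 by 2.56, although in CD4Cre they were at 0 in members and in the state. The erythroid and platelet list, in members mostly Pf4, summed to 453 to 3484 CPM in members and 474 to 2595 CPM in the state. These ranges overlapped. Natural killer markers, a list that includes Ccl5, summed to 214 to 471 CPM in members and 38.7 to 168 CPM in the state. Their sum was higher in members of all 5 libraries, with Eomes and Prf1 at 0 in the state. Ccl5 alone had 202 to 415 CPM in members. Neutrophil markers summed to 198 to 1506 CPM in members and 86.7 to 3682 CPM in the state. The part of these lists in the differences was not tested.

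**Figure D3:**
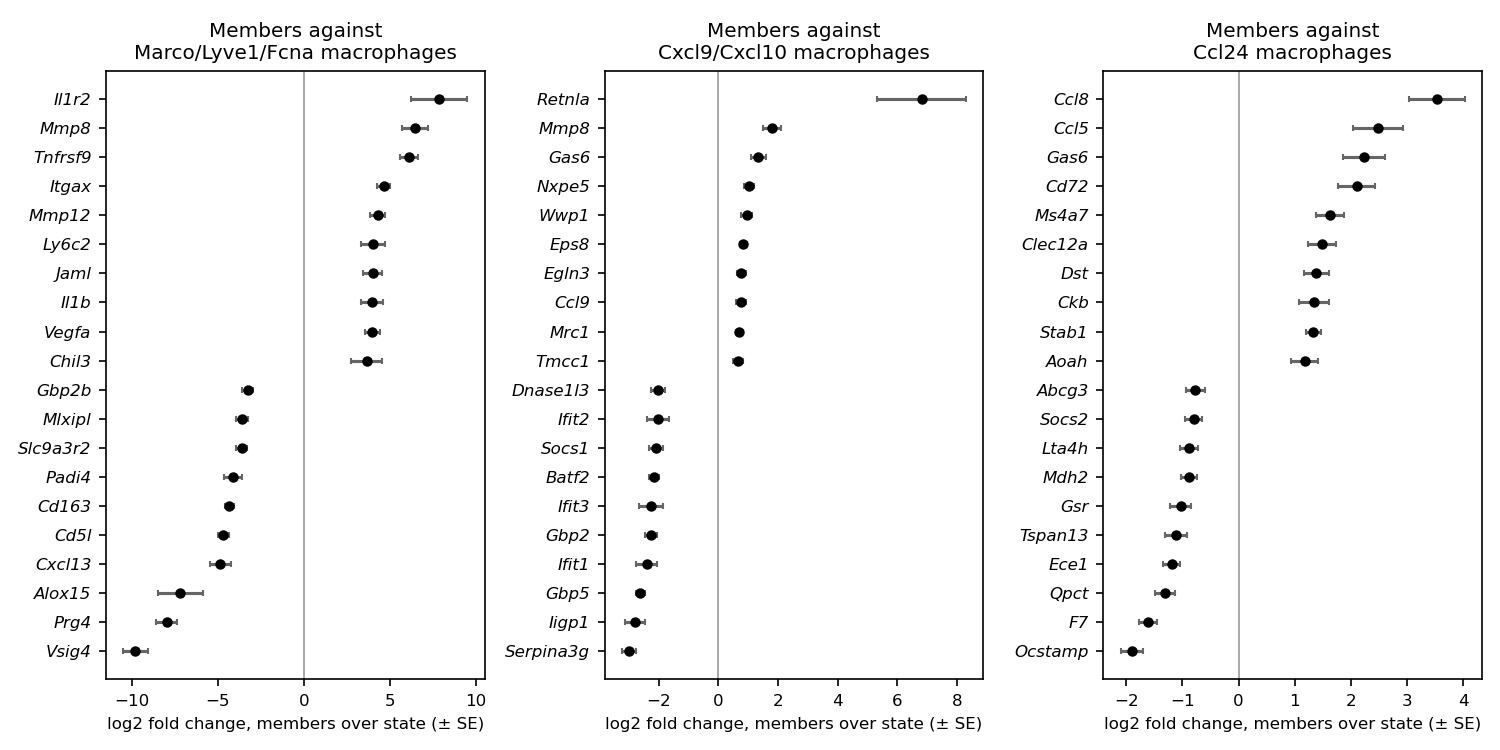
Log2 difference of members against each of 3 other C1q states for the genes named by size (horizontal axis, with SE as bars), where positive values are higher in members. Resident-macrophage genes such as Cd163 (-4.33) were low in members against the Marco/Lyve1/Fcna state, interferon-induced genes such as Gbp5 (-2.61) against the Cxcl9/Cxcl10 state, and Ocstamp (-1.90) against the Ccl24 state.

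Cd274 itself was placed between the states. Against the Marco/Lyve1/Fcna cells it had 126 against 49.4 CPM in flfl_CD4Cre and 167 against 55 in flWT_CD4Cre (log2 difference 1.55, SE 0.19, edgeR adjusted p = 4.9e-06), higher in members of both libraries. Against the Cxcl9/Cxcl10 cells it had 126 against 226 CPM in flfl_CD4Cre, 167 against 274 in flWT_CD4Cre, 50.4 against 40 in flfl, 183 against 277 in CD4Cre and 29.7 against 58.9 in WT (log2 difference -0.67, SE 0.12, edgeR adjusted p = 0.0022), lower in members of 4 of 5 libraries. Across libraries, the Cd274 level of members was 126 CPM in flfl_CD4Cre, 167 in flWT_CD4Cre, 50.4 in flfl, 183 in CD4Cre and 29.7 in WT. After thinning, the share of members with a UMI of it was 21.6% in flfl_CD4Cre, 26.3% in flWT_CD4Cre, 13.1% in flfl, 34.9% in CD4Cre and 7.25% in WT, beside 2.75 to 12.7% of T cells. Members of flfl and WT had less Cd274 than those of the first set. Pdcd1lg2, which encodes the other PD-1 ligand, had 22.5 CPM in flfl_CD4Cre, 20.4 in flWT_CD4Cre, 33 in flfl, 20.3 in CD4Cre and 19.99 in WT. Its thinned detection in members, 3.73 to 8.38%, was no higher than in T cells, 6.12 to 10.8% of 49 to 453 cells. It was higher in members than in Marco/Lyve1/Fcna cells, and whether its level is background was not tested. The costimulatory ligand genes Cd80 and Cd86 had 19.2 CPM in flfl_CD4Cre, 19.2 in flWT_CD4Cre, 12.9 in flfl, 30.8 in CD4Cre and 11.3 in WT for Cd80 and 66.4 CPM in flfl_CD4Cre, 87.2 in flWT_CD4Cre, 132 in flfl, 61.3 in CD4Cre and 117 in WT for Cd86.

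Members of the library labelled flfl_CD4Cre were set against those of CD4Cre, the pair whose labels differ by the floxed alleles, with 1 library each and no test. Cd274 in T cells stood at 51.4 CPM in flfl_CD4Cre against 52.2 CPM in CD4Cre, so that level does not bear out the label. A gene was counted when it reached 50 CPM in either library, differed by at least 1 log2 unit of CPM + 1, had Poisson intervals that did not overlap, and lay in flfl_CD4Cre outside the range of the other 4 libraries. Of 3327 genes at 50 CPM, 14 were counted as higher (0.421%) and 5 as lower (0.15%), while 27 (0.812%) and 25 (0.751%) passed the fold alone, and the median over those genes was 0.00. Without shared barcodes 15 of the 19 were still counted.

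Hal, which encodes the histidine-degrading enzyme histidase, differed most. It had 1274 UMIs and 155 CPM (interval 147 to 164) in members of flfl_CD4Cre, against 1 UMI (0.308 CPM, 0.0078 to 1.72) in CD4Cre, 0 UMIs in flWT_CD4Cre and flfl and 1 UMI in WT. It was present in 236 of 517 members (45.6%) of flfl_CD4Cre. Among the other states of that library, 179 of 183 Marco/Lyve1/Fcna cells (97.8%) held Hal, at 919 CPM, 111 of 235 Cxcl9/Cxcl10 cells (47.2%) and 15 of 36 Ccl24 cells (41.7%), and outside the gate 336 of 2778 cells (12.1%). In flWT_CD4Cre 3 of 42 Marco/Lyve1/Fcna cells held it. Hal was thus found in every macrophage state of flfl_CD4Cre and was highest in its Marco/Lyve1/Fcna cells.

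Ccr2, the receptor that brings monocytes into tissue, had 911 CPM in flfl_CD4Cre, 567 in flWT_CD4Cre, 156 in flfl, 343 in CD4Cre and 76.8 in WT (log2 difference 1.40 between flfl_CD4Cre and CD4Cre). C4b, complement component C4, had 161 CPM in flfl_CD4Cre, 143 in flWT_CD4Cre, 45.5 in flfl, 47.4 in CD4Cre and 28.9 in WT (1.74). For both genes the library labelled flWT_CD4Cre came next to flfl_CD4Cre and lay above CD4Cre. Its label gives 1 floxed allele, but its file name disagrees with the label. In Cxcl9/Cxcl10 cells Ccr2 had 543 CPM in flfl_CD4Cre against 273 in CD4Cre, whereas C4b had 94.3 against 93.4 CPM. In Ccl24 cells Ccr2 had 727 against 339 CPM and C4b 59.4 against 62.5 CPM, so that C4b was higher in members but not in these states. Cells past 2 or more limits had 431 CPM of C4b in flfl_CD4Cre against 228 in CD4Cre. Its level was highest in Marco/Lyve1/Fcna cells, at 862 CPM in flfl_CD4Cre and 1097 in flWT_CD4Cre. CD4Cre held only 2 cells of that state. Vcan, the matrix proteoglycan versican of monocytes, had 113 CPM in flfl_CD4Cre, 49.4 in flWT_CD4Cre, 6.71 in flfl, 47.8 in CD4Cre and 2.08 in WT (1.23), with flWT_CD4Cre at the level of CD4Cre. Ednrb, an endothelin receptor (1.95), Cbfa2t3, a transcriptional corepressor (1.497), Naaa, a lysosomal lipid amidase (1.33), Ptpro, a receptor phosphatase (1.29), Lifr, the receptor of leukaemia inhibitory factor (1.251), Add3, adducin 3 (1.10), and Myadm, a myeloid membrane protein (1.04), were also counted as higher. Gm10076, a gene model, and Ifitm6, which the naming rule left out or placed beyond its first 12, were counted too.

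Among the 5 genes counted as lower, Cxcl2, a neutrophil chemokine, had 87.3 CPM in flfl_CD4Cre, 308 in flWT_CD4Cre, 1036 in flfl, 245 in CD4Cre and 372 in WT (-1.48). Ccl7, a monocyte chemokine, had 166 CPM in flfl_CD4Cre, 487 in flWT_CD4Cre, 301 in flfl, 411 in CD4Cre and 282 in WT (-1.31). Rgs1, which dampens chemokine receptor signalling, had 95.5 CPM in flfl_CD4Cre, 518 in flWT_CD4Cre, 586 in flfl, 196 in CD4Cre and 212 in WT (-1.03). In each case flfl_CD4Cre was the lowest of the 5 libraries and flWT_CD4Cre lay above CD4Cre. The libraries labelled with a floxed allele and Cre thus did not order together. In the other states the order was not the same: Cxcl2 had 127 CPM in Cxcl9/Cxcl10 cells of flfl_CD4Cre against 65.4 in those of CD4Cre, and 117 against 32.7 CPM in Ccl24 cells. Ccl7 had 136 against 280.1 CPM in Cxcl9/Cxcl10 cells and 189 against 131 CPM in Ccl24 cells. Slc48a1, a haem transporter, had 57.4 CPM in flfl_CD4Cre, 78 in flWT_CD4Cre, 57.6 in flfl, 131 in CD4Cre and 61.9 in WT (-1.18), where flfl was as low as flfl_CD4Cre, and the tetraspanin Tspan4 had 30.7 CPM in flfl_CD4Cre, 38.7 in flWT_CD4Cre, 52.7 in flfl, 67.2 in CD4Cre and 83.1 in WT (-1.11).

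Gene lists gave the same pair a broader description, beside an all-gene median of 0.00. Of 11 MHC class II presentation genes 9 were higher in flfl_CD4Cre than in CD4Cre, with a median of 0.68, but none passed the size rule: Cd74, the invariant chain, had 11128 CPM in flfl_CD4Cre, 10275 in flWT_CD4Cre, 44368 in flfl, 7139 in CD4Cre and 49775 in WT (0.64), and H2-Ab1, an antigen-presenting chain, had 4117 CPM in flfl_CD4Cre, 4003 in flWT_CD4Cre, 13776 in flfl, 2550.5 in CD4Cre and 13536 in WT (0.69). Both genes were highest in flfl and WT. Of 22 glycolysis and hypoxia genes 21 were lower, with a median of -0.29, the glucose transporter Slc2a1 having 189 CPM in flfl_CD4Cre, 230.1 in flWT_CD4Cre, 74 in flfl, 285 in CD4Cre and 68 in WT (-0.59). Of 19 chemokine and receptor genes 15 were lower (median -0.34), and of 17 inflammatory macrophage genes 14 (median -0.49). Arg1, the enzyme arginase 1, had 2193 CPM in flfl_CD4Cre, 2626 in flWT_CD4Cre, 697 in flfl, 4059 in CD4Cre and 662 in WT (-0.89), Pf4, a platelet and macrophage chemokine, had 789 CPM in flfl_CD4Cre, 1689 in flWT_CD4Cre, 443 in flfl, 3421 in CD4Cre and 617 in WT (-2.11), and Hmox1, which degrades haem, had 416 CPM in flfl_CD4Cre, 483 in flWT_CD4Cre, 133 in flfl, 1094 in CD4Cre and 183 in WT (-1.39). CD4Cre was the highest library for all 3, and none was counted, since Arg1 missed 1 log2 unit and the other two were lower still in flfl and WT. The erythroid and platelet list, which includes Pf4, summed to 806 CPM in members of flfl_CD4Cre and 3484 CPM in those of CD4Cre. Pf4 made up nearly all of both sums, and in CD4Cre members the haemoglobin genes and Alas2 were at 0. The part of the list's other genes was not tested.

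**Figure D4:**
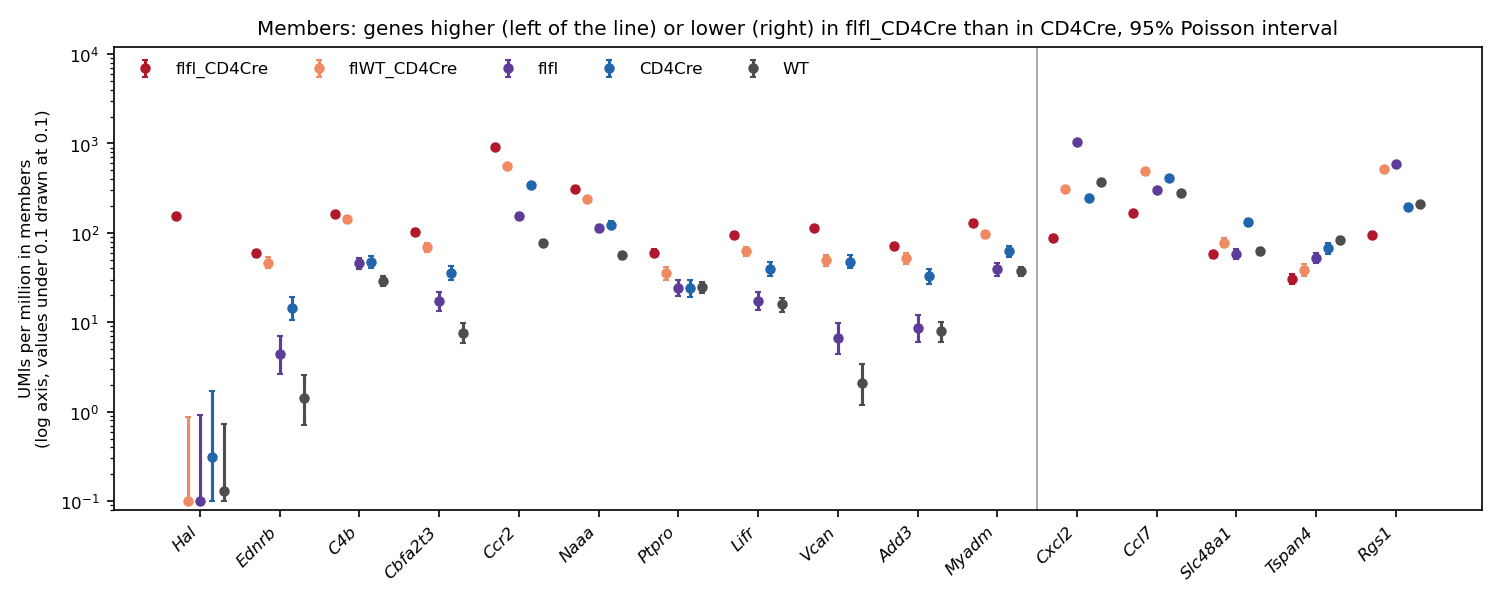
Level in members of each library, in CPM on a log axis with 95% Poisson intervals, of named genes counted as higher (left of the line) or lower (right) in flfl_CD4Cre than in CD4Cre. Hal stood at 155 CPM in flfl_CD4Cre and near 0 in the other 4 libraries, and Cxcl2 was lowest in flfl_CD4Cre.

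The 2 sets of libraries differed far more than that pair. Of 3340 genes, 1076 (32.2%) were at least 1 log2 unit higher, without overlap, in members of flfl_CD4Cre, flWT_CD4Cre and CD4Cre than in flfl and WT. Another 176 (5.27%) were lower, and the median difference was 0.48. These counts rest on plain CPM. TMM factors, which rescale library sizes for composition, were 1.10 to 1.16 in members of the first set and 0.82 in flfl and WT. Scaling by them lowers the first set against flfl and WT, and the counts were not repeated with it. Nos2, inducible nitric oxide synthase, had 77.7 CPM in flfl_CD4Cre, 126 in flWT_CD4Cre, 3.73 in flfl, 161 in CD4Cre and 3.12 in WT, and F13a1, a coagulation factor subunit of monocytes and resident macrophages, had 529 CPM in flfl_CD4Cre, 532 in flWT_CD4Cre, 36 in flfl, 777 in CD4Cre and 36.3 in WT. Mrc1 had 781 CPM in flfl_CD4Cre, 544 in flWT_CD4Cre, 138 in flfl, 619 in CD4Cre and 135 in WT. On the other side Il1b had 164 CPM in flfl_CD4Cre, 369.8 in flWT_CD4Cre, 1407 in flfl, 138 in CD4Cre and 707 in WT, and Ccl17, a T cell chemokine, had 30.3 CPM in flfl_CD4Cre, 29.1 in flWT_CD4Cre, 366 in flfl, 16.9 in CD4Cre and 50.6 in WT. For each of these genes the levels of the 2 sets did not overlap. Within the second set Ccl17 also differed, at 366 CPM in flfl and 50.6 in WT, as did Il1b, at 1407 and 707 CPM. Since Cre, the sex-linked transcripts and the matrix format cannot be told apart here, no level is read as an effect of Cre.

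Variation among the members was measured within each library on cells thinned to 3000 UMIs, as the variance over the mean of a gene's UMIs (Fano factor). For random sampling alone it is near 1, and its median over 4168 genes was 1.03 to 1.09 a library. The factor was not corrected for level, and at equal relative spread it is larger for a more abundant gene. Its order over genes or libraries of different level is thus not an order of relative spread. By mean rank of the Fano factor the 15 most variable genes were Apoe, Malat1, Fth1, Cd74, Ccl8, Saa3, Mmp12, Spp1, Lyz2, Arg1, Pf4, Mmp9, H2-Ab1, Mt1 and Ftl1. They fall into lipid and secretory genes (Apoe, Lyz2, Ccl8), antigen presentation (Cd74, H2-Ab1), iron and metal storage (Fth1, Ftl1, Mt1), and a group of Arg1, Spp1, the matrix protein osteopontin, Mmp12, Mmp9 and Pf4. Apoe had a Fano factor of 35.2 in flfl_CD4Cre, 64.1 in flWT_CD4Cre, 81.9 in flfl, 42.1 in CD4Cre and 66.1 in WT. Since Apoe was far more abundant in members of flfl and WT, these values do not rank the libraries by its relative spread. Arg1 had 14.1 in flfl_CD4Cre, 11 in flWT_CD4Cre, 15.8 in flfl, 15.4 in CD4Cre and 21.2 in WT. Cd74 had 16.4 in flfl_CD4Cre, 26.5 in flWT_CD4Cre, 33.7 in flfl, 26.6 in CD4Cre and 46.9 in WT. Saa3, an acute-phase protein, had 22.1 in flfl_CD4Cre, 49.3 in flWT_CD4Cre, 44 in flfl, 10.3 in CD4Cre and 38.5 in WT. All stood many times above the median gene in each library, and Saa3 did so although at most 16.7% of thinned members held a UMI of it. How much of the excess over the median gene follows from level was not tested.

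The variable genes formed opposed groups within every library. The correlations given are Pearson r of ln(UMIs + 1) across the cells of 1 library at 1 depth, with 510, 236, 358, 235 and 676 cells, and they are descriptions, since cells of a library share its preparation. Cd74 and H2-Ab1, which act in the same complex, gave r = 0.89 to 0.91. Arg1 followed the glycolysis and hypoxia list at r = 0.53 to 0.71, Pf4 at r = 0.30 to 0.54 and Spp1 at r = 0.35 to 0.46. Against these stood antigen presentation: H2-Ab1 and Pf4 gave r = -0.46 to -0.61, and H2-Ab1 and Arg1 r = -0.40 to -0.53. The MHC class II list gave r = -0.41 to -0.58 with Arg1 and r = -0.35 to -0.51 with the glycolysis and hypoxia list. Members richer in Arg1 or glycolytic transcripts therefore tended to have less MHC class II transcript, in all 5 libraries.

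C1q varied together with Apoe and with lysosomal genes. The summed C1q genes followed the lysosome and cathepsin list at r = 0.33 to 0.54. With the lipid handling list, taken without Apoe, they gave r = -0.19 to 0.08. That list instead followed Arg1, at r = 0.27 to 0.61. The sum of C1qa, C1qb and C1qc, which the rule held at 20 or more before thinning, followed Apoe at r = 0.49 to 0.69, and Apoe followed the lysosome and cathepsin list at r = 0.43 to 0.52. With the glycolysis and hypoxia list the C1q sum gave r = -0.30 to -0.41, with Arg1 r = -0.10 to -0.41, and with the MHC class II list r = 0.19 to 0.42. Apoe and Cd74 were nearly unrelated in flfl_CD4Cre (-0.0363), flWT_CD4Cre (0.054) and CD4Cre (-0.012) and weakly related in flfl (0.24) and WT (0.37). Cells rich in Arg1 and glycolytic transcripts thus tended to be lower in both MHC class II and C1q, with C1q and Apoe varying together.

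**Figure D5:**
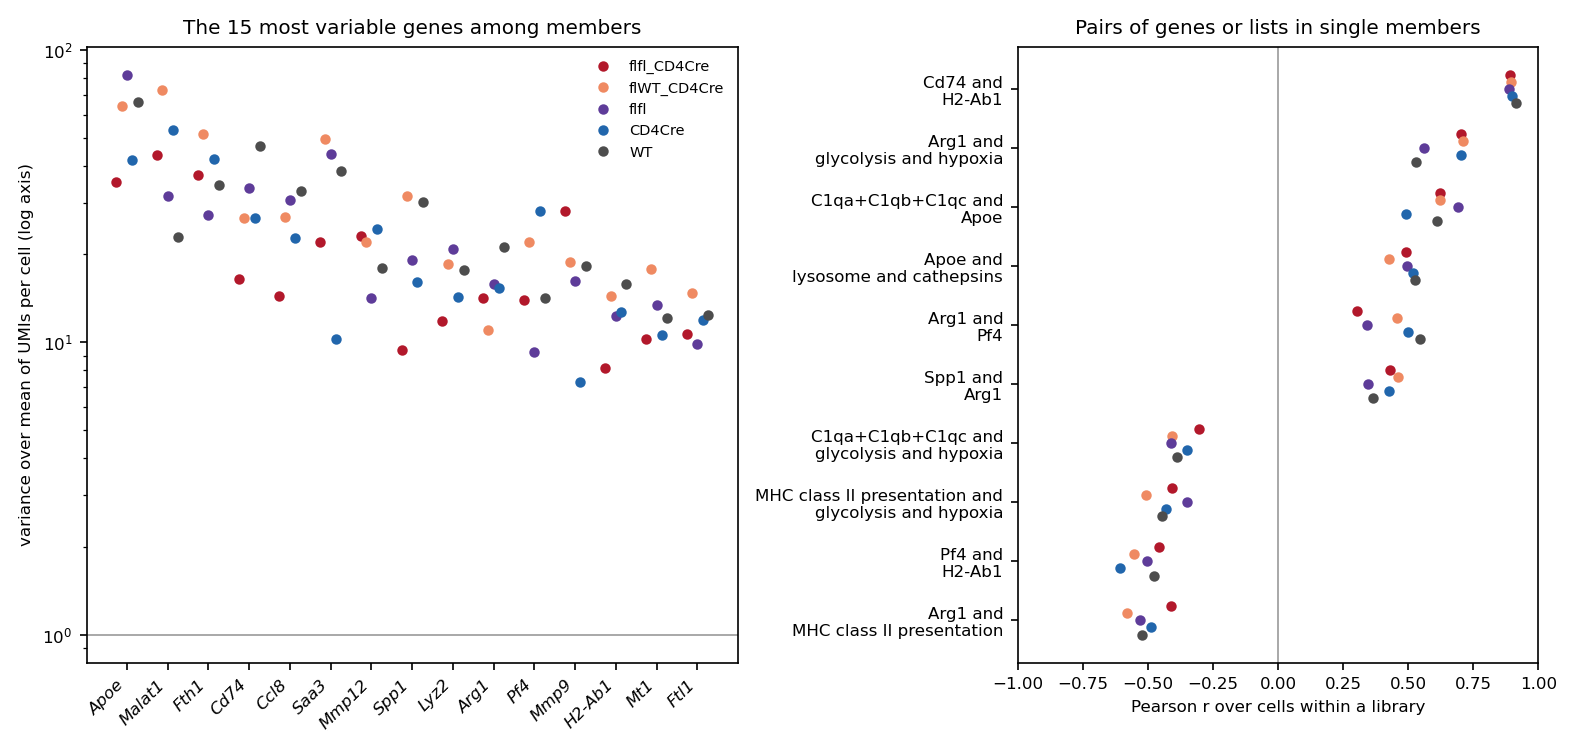
Fano factor of the 15 most variable genes in members of each library at 3000 UMIs per cell (left panel, log axis, with a line at 1), and Pearson r of pairs of genes or lists over cells within each library (right panel). Fano factors were not corrected for the level of a gene. Cd74 with H2-Ab1 gave the highest r, 0.89 to 0.91, and the pairs of Arg1 or Pf4 with MHC class II lay below 0 in all 5 libraries.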

How the data were processed

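The 5 single-cell libraries were used. Each is a matrix of raw counts of UMIs by gene and cell barcode that the authors deposited. Per the submitters' processing notes, bcl2fastq, Cell Ranger, STAR, HTSeq, bedtools and mm10 were used, and per the file headers Cell Ranger was version 3.1.0 for 3 matrices. No further filter is stated for these matrices in the sources used here. The 12 bulk libraries of the series were not used here. Groups follow the labels, and the file names of flWT_CD4Cre and WT disagree with them. Genes present in all matrices (28208) were kept, and 0 columns of per-sample values were unmapped.

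Members and gene lists were chosen with earlier results of these data known, so counts over them support nothing independently. UMI counts were summed per library and state, and the states were fitted together with edgeR 4.0.16 (R 4.3.3; TMM, default filter, robust quasi-likelihood, library as block, Benjamini-Hochberg over all genes tested). Genes of the rule, gene models, ribosomal, mitochondrial, immunoglobulin and sex-linked genes were not named by size. These p-values measure only the spread between these libraries. The library is a block because states compared within 1 library share its preparation. The SE was taken as the absolute fitted log2 difference divided by the root of its F statistic. CPM are summed UMIs scaled to 1000000, with exact Poisson intervals at 95%, and genotypes were compared by size only, with a pseudocount of 1 CPM.

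Named genes are the fixed markers, the PD-1 ligand and costimulatory genes, and for each state the 10 largest changes each way past an adjusted p of 0.05 with 1 sign in every library and at least 50 CPM. For genotypes they are the 12 largest counted each way, for each list up to 4 members by level plus those past the tests, and the 15 most variable genes. Hal, Ccr2, C4b, Cxcl2 and Ccl7 by state, Retnla by cell, Adgre1, and genes given as examples between the 2 sets of libraries were chosen after their values were seen. Scrublet (scanpy 1.11.5, Python 3.11.15) called only 1 to 25 doublets a library, so removal of the highest scores at 0.8% per 1000 cells was an alternative. Others were DESeq2 1.42.0, its size factors, no filter, no block, thinning, other limits, omission of shared barcodes and of each library. The steps were tested on simulated data. Sequences come from RefSeq on GRCm38.p6. Some genes that the rule names are not reported here.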

Additional observations from a re-analysis of the deposited data

How the results depend on the processing

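Each comparison rests on 1 library per genotype, so no genotype difference has a replicate check, and raw UMI limits depend on depth. Of the values for single genes, 4234 were classed as unchanged under an alternative and 652 lost the threshold. Another 279 moved, 15 passed the threshold anew and 5 turned direction. A gene short of the threshold in the main fit was classed as unchanged while it stayed short, even if its sign turned. Turned direction was thus counted only for genes that passed in the main fit. Genotype values have no such threshold and were classed as unchanged while they stayed within the interval of the main value. The 5 were all against the Marco/Lyve1/Fcna state: without the replicate block Fcgr4 was 0.11, Xist -0.22, Ier2 0.0918 and Trf 0.12, and thinned to 3000 UMIs Igtp was 0.0840. The cause was not tested. Without the replicate block, members had 147 genes higher and 146 lower than the Marco/Lyve1/Fcna state, 0 and 10 against the Cxcl9/Cxcl10 state (263 at an unadjusted p under 0.05 by edgeR), and 0 and 0 against the Ccl24 state (411 unadjusted), where DESeq2 with the block gave 114 and 183. Fewer UMIs gave, thinned to 3000 UMIs, 367 and 287 against the Marco/Lyve1/Fcna state and 20 lower against the Ccl24 state. With no filter on low counts the counts were 258 and 337 against Cxcl9/Cxcl10 and 422 and 120 against Ccl24. Leaving out single libraries gave 393 to 708 higher and 319 to 691 lower (Marco/Lyve1/Fcna), 38 to 83 and 126 to 201 (Cxcl9/Cxcl10), and 21 to 208 and 12 to 158 (Ccl24). Between flfl_CD4Cre and CD4Cre, genes counted as higher were 50 with no filter on CPM, 28 at 10 CPM, 9 at 100 CPM and 22 when thinned, and those counted as lower were 8 with TMM, 49 with no filter, 13 at 10 CPM and 2 without shared barcodes. Between 13 and 19 of the 19 remained. Member shares moved to 54.7% in flfl_CD4Cre and 63.1% in CD4Cre without shared barcodes. With a C1q limit of 10 they were 46.9% in flfl_CD4Cre and 48.6% in flWT_CD4Cre, and with 40 it was 40.8% in flfl_CD4Cre. With limits per 10000 UMIs they were 50.2% in flfl_CD4Cre, 48.2% in flWT_CD4Cre and 84.0% in WT. Thinned to 3000 UMIs they were 68.0% in flfl_CD4Cre, 70.2% in flWT_CD4Cre, 85.1% in flfl, 76.8% in CD4Cre and 92.7% in WT. Of the 15 most variable genes, 13 to 15 remained under each alternative.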

Other observations

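Other groups of genes separated members from the Marco/Lyve1/Fcna macrophages in flfl_CD4Cre and flWT_CD4Cre. Of 15 tested genes for PD-1 ligands and checkpoints, 6 were higher in members and 3 lower, beside 7.73% and 7.51% of all genes tested. The higher genes were Cd274, Pdcd1lg2, Havcr2, which encodes TIM-3 (log2 difference 2.16), Icosl, the ligand of ICOS (2.43), Tnfsf9, the ligand of 4-1BB (1.21), and Sirpa, the receptor of CD47 (0.39). The lower genes were Vsig4, Vsir, which encodes VISTA (-0.62), and Lgals9, galectin 9 (-0.59). The fitted difference of Pdcd1lg2 was 3.58, although its detection in members was no higher than in T cells. Spp1 had 785 against 258 CPM in flfl_CD4Cre and 2676 against 113 in flWT_CD4Cre, members first (log2 difference 2.90, SE 0.81, edgeR adjusted p = 0.041), and the fatty acid carrier Fabp5 had 856 against 187 CPM in flfl_CD4Cre and 2171 against 443 in flWT_CD4Cre (log2 difference 2.27, SE 0.32, edgeR adjusted p = 0.00073). Both were higher in members of each library. Ptgs2, the inducible cyclooxygenase that makes prostaglandin precursors, was higher (log2 difference 4.95), whereas Alox5, the 5-lipoxygenase of leukotriene synthesis, was lower (-3.22). Several of these calls depended on 1 library. Without flfl_CD4Cre, Spp1, Fabp5, Ptgs2, Sirpa, Tnfsf9 and Pdcd1lg2 missed an adjusted p of 0.05 by edgeR, and without flWT_CD4Cre, Spp1, Ptgs2, Sirpa and Vsir did. Spp1 and Sirpa also missed it without flfl or WT, and Sirpa without CD4Cre, while Cd274, Havcr2 and Alox5 passed under each omission.

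Retnla came from few members in the other libraries too, 7 of 358 in flfl, 3 of 242 in CD4Cre and 3 of 676 in WT. Among the 21 Ccl24 cells of CD4Cre, all 754 Retnla UMIs came from 1 cell.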
